A study of Homo sapiens with 15 samples.

Results

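The molecular chaperones of the A375 melanoma line were followed through 74 genes of the 18322 in the deposited table, across parental cells, drug-resistant cells and cells that differ in MYC. Members were chosen by gene symbol alone: HSPA, HSPB, DNAJA, DNAJB, DNAJC and CCT genes with a number, HSP90AA1, HSP90AB1, HSP90B1, and HSPH1, HSPD1, HSPE1, TCP1, HSF1 and TRAP1. They comprised HSF1, 14 HSP70 genes (HSPH1 among them), 4 HSP90 genes (TRAP1 among them), 5 small HSPB genes, 3 DNAJA, 10 DNAJB and 26 DNAJC genes, 9 chaperonin CCT genes (TCP1 among them), and HSPD1 and HSPE1. Of these, 73 passed the filter on low values and were tested, and DNAJB13 was not. A member low in all groups but 1 could pass only through the group where it was high.

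A375 is an established human melanoma line with an activated BRAF kinase. Bulk RNA was sequenced from 5 groups of 3 libraries, which the series calls biological triplicates. Parental was the line itself, Resistant a clonal population (a single clone) resistant to PLX4720, a drug that blocks mutant BRAF, and MYC T58A was the parental line with a form of MYC that is degraded slowly. The last 2 groups were resistant cells labelled with the short hairpins shMYC1 or shMYC2, meant to lower MYC. The labels do not give the promoter of the MYC construct, the vector of the hairpins, a control hairpin or whether PLX4720 was present at harvest. The comparisons ask how the resistant clone differs from the line it came from, what MYC T58A changes in the parental line, and how the hairpin-labelled libraries differ from Resistant. Resistant was compared with Parental, and so was MYC T58A, so those comparisons share the Parental libraries. Both hairpin groups were compared with Resistant and share those libraries, and Resistant against Parental uses them too.

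Chaperones bind unfolded protein chains, keep them from clumping and let them fold. HSP70 proteins do so in cycles driven by ATP, which J-domain proteins of the DNAJ families start and exchange factors such as HSPH1 end. HSP90 takes over clients such as kinases, BRAF among them, small HSPB proteins hold clients without ATP, and the ring chaperonins (CCT in the cytosol, HSP60 with its lid HSP10 in mitochondria) enclose them. HSF1 is the transcription factor that raises many of these genes when unfolded protein builds up, and MYC raises genes of growth and protein synthesis.

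Values are normalized reads, which are read counts divided by the size factor of the library. The libraries held 24222192 to 30399644 reads in the table. MYC, the gene targeted, went against both hairpin labels: it had 436, 419 and 413 normalized reads in Parental, 329.8, 274 and 304 in Resistant, 459, 518 and 481 in the libraries labelled shMYC1, 7760.4, 8099.9 and 7589.5 in those labelled shMYC2 and 3612, 3425 and 3496 in MYC T58A, where construct and endogenous reads cannot be separated. In neither hairpin group was MYC lower than in Resistant, and those comparisons are given as differences between labelled libraries. The libraries labelled shMYC2 stood apart: 1636 to 1694 genes had no read in them, against 296 to 665 elsewhere, and they correlated across genes at 0.828 to 0.848 with the others, against 0.928 to 0.975 among the other groups. Library 2 labelled shMYC1 stood farthest from its own group. The labels give the cell type as melanocyte. Of the melanocyte markers, MITF, PMEL, DCT, SOX10 and S100B were in the deposited table, and TYR and MLANA were absent from it. Summed, those present ran from 6799 to 7098 normalized reads in Parental, 3539.5 to 3982 in Resistant and 3524 to 3903 in MYC T58A. The sum was 13096 to 15462 in the libraries labelled shMYC1 and 175 to 230.2 in those labelled shMYC2, where DCT had no read. The markers went both ways: under the shMYC1 label SOX10 and S100B were higher than in Resistant and MITF lower, and in Resistant MITF was higher and SOX10 and S100B lower than in Parental. Summed fibroblast markers (7 of 7 in the table) were at 3959 to 4169 in Resistant and 404 to 578 in the other groups. Their part in the results was not tested, and in bulk samples fewer cells of a type and less RNA per cell cannot be told apart.

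Promoter sequences show the regulatory letters these genes carry. RefSeq promoters (GRCh38.p14, 250 bases before to 50 after the start) matched 68 of the 74 members. CCT6A, DNAJC1, DNAJC22, DNAJC24, HSF1 and HSPA14 had no entry. The heat shock element, the site of HSF1, was searched on both strands as GAA, TTC and GAA with any 2 bases between each, and 4 of the 68 promoters (5.88%) held it, against 133 of all 27305 promoters (0.487%). HSPA8, with 2 matches, HSPA6 and DNAJB6 are shown because their matches lie before the start, with the match in capitals. The match of DNAJA1 begins 3 bases after its start.
HSPA8: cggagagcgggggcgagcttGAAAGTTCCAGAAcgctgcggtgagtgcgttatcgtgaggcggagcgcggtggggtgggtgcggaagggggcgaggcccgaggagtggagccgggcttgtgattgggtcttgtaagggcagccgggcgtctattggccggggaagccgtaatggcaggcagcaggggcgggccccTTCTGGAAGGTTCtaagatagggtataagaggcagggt
HSPA6: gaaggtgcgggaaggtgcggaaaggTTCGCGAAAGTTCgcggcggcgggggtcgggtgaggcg
DNAJB6: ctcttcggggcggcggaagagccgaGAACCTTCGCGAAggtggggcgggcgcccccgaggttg
They lie at chr11:123062154-123062386, minus strand, chr1:161524441-161524503, plus strand, and chr7:157336848-157336910, plus strand. In HSPA8 the matches begin 230 and 55 bases before the start, in HSPA6 74 and in DNAJB6 131. A match says only that the letters are there, and the lack of one says nothing about HSF1.

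Genes of the endoplasmic reticulum (ER) carry another element. The ER stress element was searched on both strands as CCAAT, any 9 bases and CCACG, so that each match contains a CCAAT box, and was found in 2 of the 68 members (2.94%), HSPA5 and HSP90B1, and in 22 of all promoters (0.0806%). Both are printed with the element in capitals, since they are the main HSP70 and HSP90 of that compartment.
HSPA5: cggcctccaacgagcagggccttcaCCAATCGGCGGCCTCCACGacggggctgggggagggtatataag
HSP90B1: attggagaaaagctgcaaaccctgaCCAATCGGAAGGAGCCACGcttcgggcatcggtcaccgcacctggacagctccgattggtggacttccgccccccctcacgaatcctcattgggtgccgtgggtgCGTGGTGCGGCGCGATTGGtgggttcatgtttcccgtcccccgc
HSPA5 lies at chr9:125241366-125241434, minus strand, with the element 66 bases before its start, and HSP90B1 at chr12:103930191-103930364, plus strand, with elements 194 and 89 bases before its start. The E-box CACGTG, which MYC and other factors bind, occurred in 8 of the 68 promoters (11.8%) and in 2030 of all promoters (7.43%). It is shown for the 3 main mitochondrial members, HSPA9, HSPD1 and HSPE1, with the E-box in capitals.
HSPA9: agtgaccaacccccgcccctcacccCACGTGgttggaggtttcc
HSPD1: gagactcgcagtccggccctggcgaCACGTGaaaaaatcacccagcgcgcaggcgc
HSPE1: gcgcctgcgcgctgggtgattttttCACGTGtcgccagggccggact
HSPA9 lies at chr5:138575402-138575445, minus strand. HSPD1 (HSP60) and HSPE1 (HSP10) are read in opposite directions from starts 105 bases apart, and their stretches (chr2:197500332-197500387, minus strand and chr2:197500332-197500378, plus strand) hold the same E-box read from either strand. The other members with an E-box were DNAJB9, DNAJC12, DNAJC16, DNAJC8 and HSP90B1.

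Summed over the 74 genes, the chaperones took more of the reads in MYC T58A and less in Resistant, and a few abundant genes carry such a sum. The sum was 2.63% to 2.66% of normalized reads in Parental, 2.19% to 2.37% in Resistant, 2.46% to 2.66% in the libraries labelled shMYC1, 2.28% to 2.32% in those labelled shMYC2 and 2.82% to 2.95% in MYC T58A. The MYC T58A libraries lay above all 12 others, and the Resistant and shMYC2-labelled libraries lay below all Parental and shMYC1-labelled ones. HSPA8 alone held 0.39% to 0.393% in Parental, 0.287% to 0.325% in Resistant and 0.362% to 0.395% in MYC T58A, and HSP90AA1 0.388% to 0.392%, 0.252% to 0.294% and 0.395% to 0.428%. The CCT genes alone went from 0.602% to 0.611% in Parental to 0.701% to 0.722% in MYC T58A and 0.483% to 0.517% in Resistant. Per kilobase of merged exon (GENCODE v29), the members with the highest level in Parental were HSP90AB1 (27255 normalized reads per kilobase), HSPA8 (20827), HSP90AA1 (19216), HSPD1 (7851), HSP90B1 (7211) and CCT4 (7030.3).

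**Figure D1:**
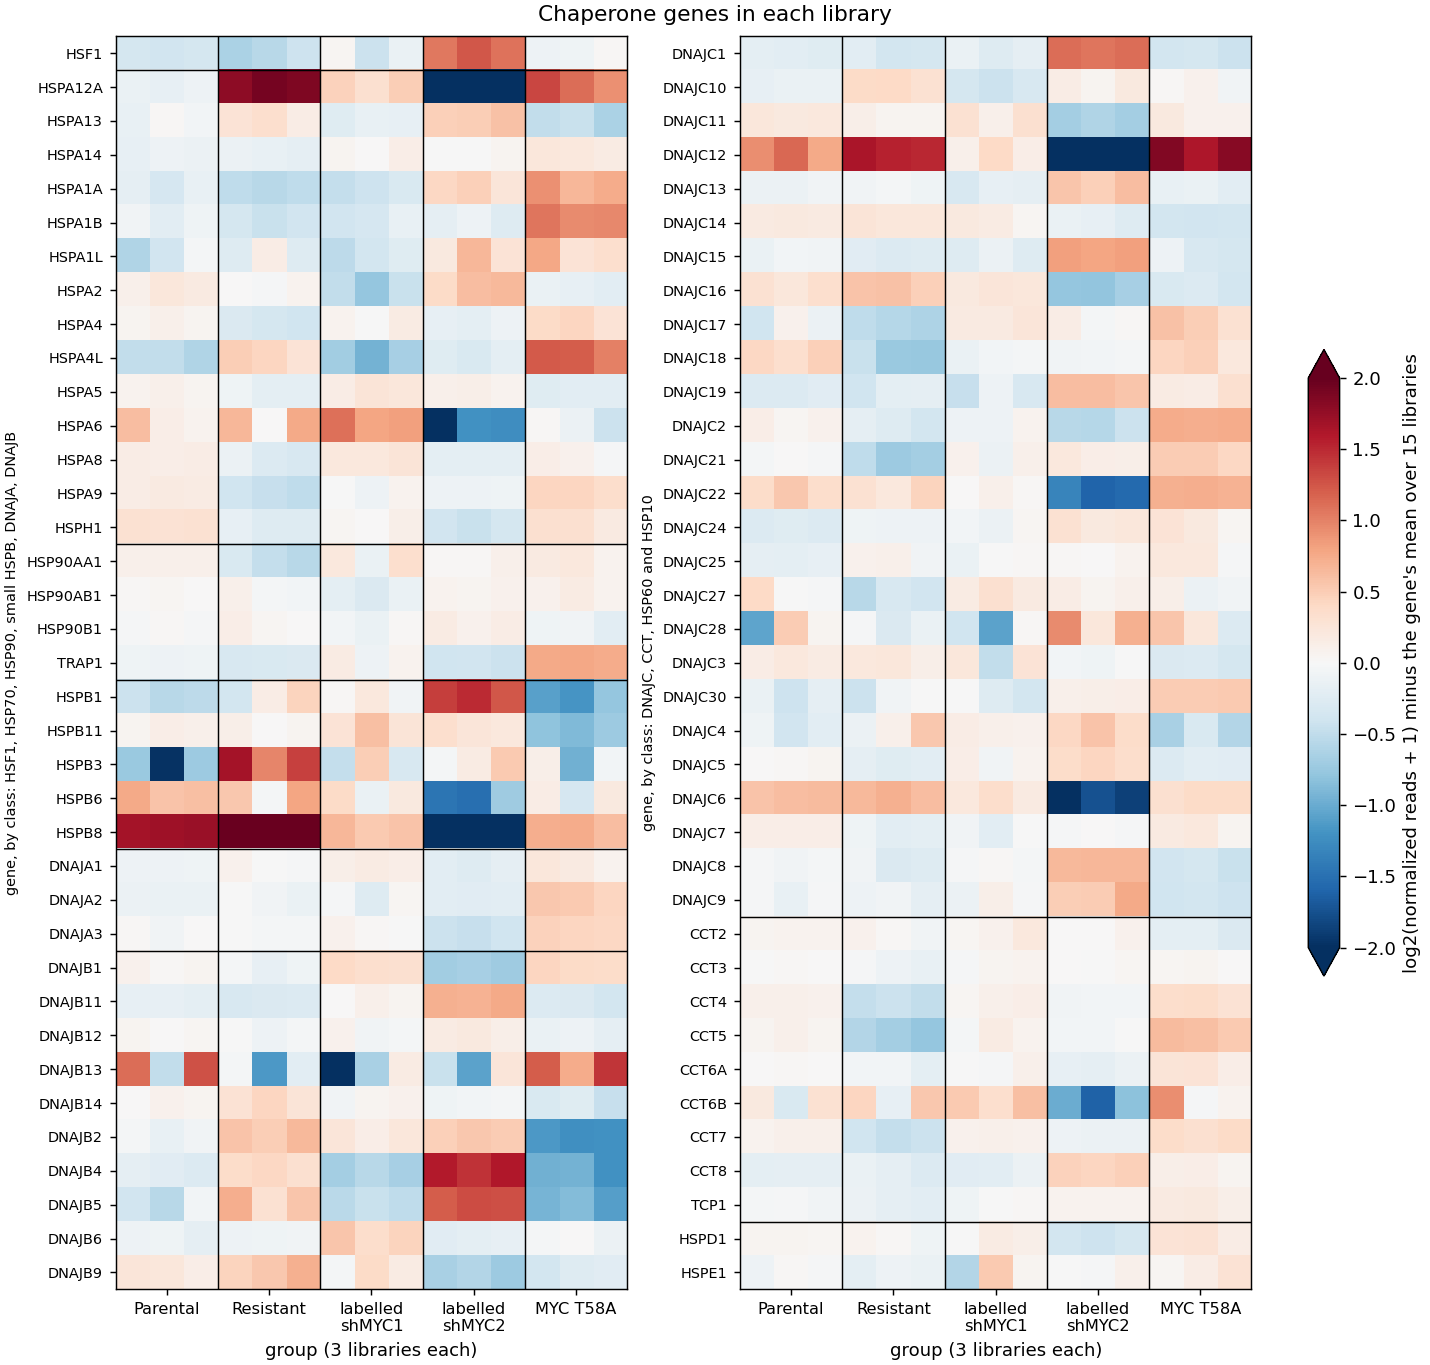
Level of each of the 74 genes (vertical axis, by class) in each of the 15 libraries (horizontal axis, 3 per group), as log2(normalized reads + 1) minus the gene's mean over all libraries, with colours ending at 2 in either direction. HSPB8, HSPA12A and DNAJC12 are deep blue in the libraries labelled shMYC2, where HSF1 is red, and DNAJB2, DNAJB4 and DNAJB5 are blue in MYC T58A.

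Tests used limma on log2(normalized reads + 1), with Benjamini-Hochberg adjustment over all 17012 genes tested and a call at an adjusted p under 0.05, and all log2 differences below are on that scale. In Resistant against Parental, 17 members were called higher and 25 lower of 73, where 51.6% of all genes were called (27.2% higher and 24.4% lower). Their median log2 difference was -0.05, against 0.01 over all genes. In MYC T58A against Parental, 31 were higher and 24 lower, where 63.8% of all genes were called (30.1% higher and 33.7% lower), with medians of 0.07 and -0.02. In the libraries labelled shMYC1 against Resistant, 28 were higher and 18 lower, where 57.1% of all genes were called (27.0% higher and 30.1% lower), with medians of 0.10 and -0.03. In those labelled shMYC2, 37 were higher and 23 lower, where 79.2% of all genes were called (36.2% higher and 43.0% lower), with medians of 0.17 and -0.08. That last split depended on scaling: with quantile normalization 30 were higher and 28 lower, and with total scaling 27 and 30. These settings moved the median of all genes by 0.23 and -0.14. Against Parental, the libraries labelled shMYC1 had 14 members higher and 14 lower, where 39.6% of all genes were called (19.7% higher and 19.9% lower), and 34 members did not overlap (50.7% of all genes). Members called either way were 42, 55, 46 and 60 of 73 in the 4 main comparisons. The libraries of the compared groups did not overlap in 48, 60, 47 and 65 members, against 63.5%, 72.7%, 60.1% and 81.3% of all genes in these comparisons. For a single gene, 3 libraries on each side allow an exact two-sided permutation p of 0.1 at the lowest.

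**Figure D2:**
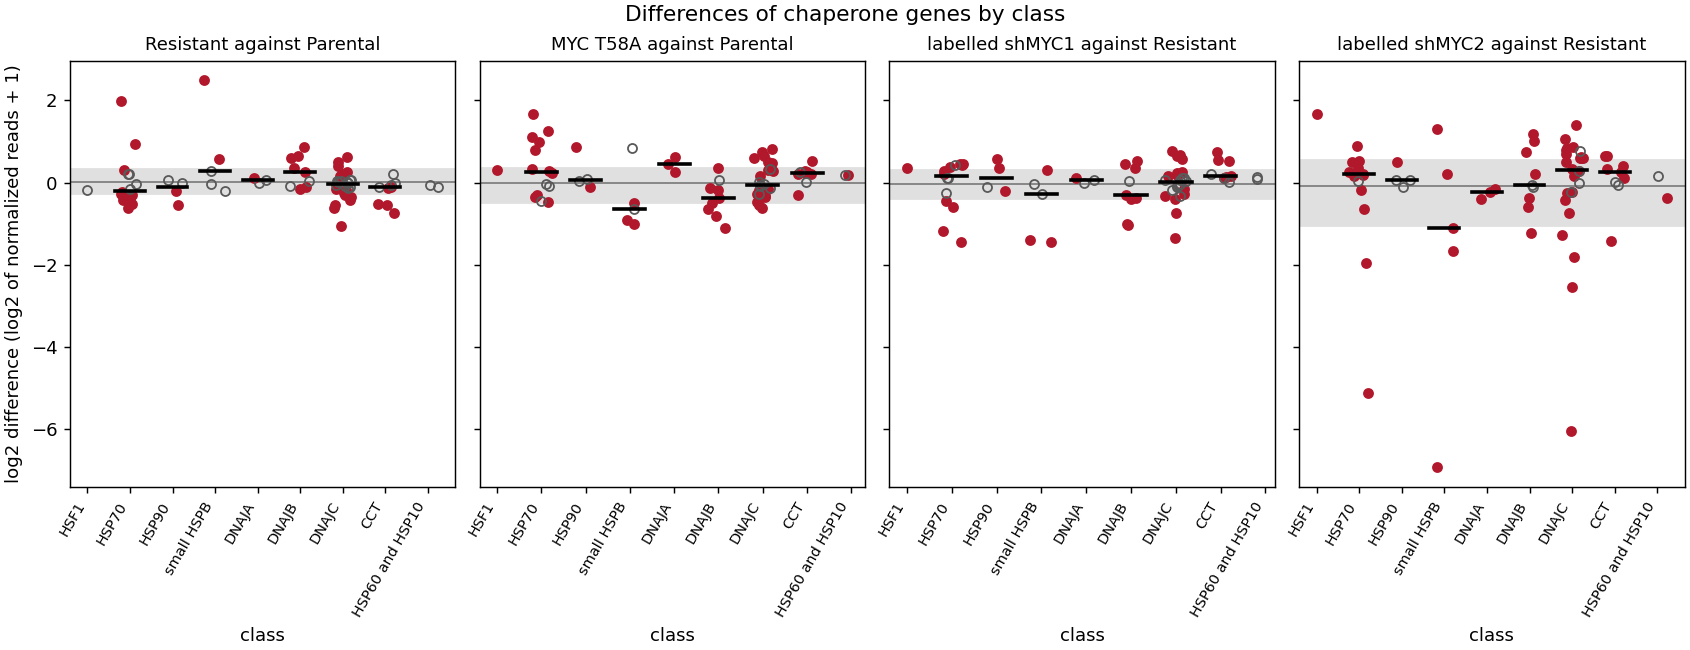
Log2 difference of each tested gene (points, vertical axis) by class (horizontal axis) in 4 comparisons. Filled points were called and open ones were not, black bars are class medians for classes of 3 or more, and the grey line and band are the median and the middle 50% of all 17012 tested genes. In MYC T58A the DNAJB genes lie mostly below 0 (7 of 9 called lower, against 33.7% of all genes). The CCT genes lie mostly above it there (6 of 9 called higher, against 30.1%).

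HSF1 stood highest in the libraries labelled shMYC2. HSF1 had 1893, 1867 and 1904 normalized reads in Parental, 1566, 1649.8 and 1829 in Resistant, 2482, 1792 and 2203 in the libraries labelled shMYC1, 5054, 5732 and 5137 in those labelled shMYC2 and 2256, 2282 and 2477 in MYC T58A. All 3 libraries labelled shMYC2 lay above the other 12. Against Resistant they were 3.16-fold higher (log2 difference 1.66, SE 0.092, adjusted p = 5.17e-11), and the median of the 50 tested genes nearest to HSF1 on its chromosome was 0.59 there. The gene was also 1.24-fold higher (log2 difference 0.31, SE 0.092, adjusted p = 0.00822) in MYC T58A than in Parental, and these libraries did not overlap. In the libraries labelled shMYC1 it was 1.28-fold higher (log2 difference 0.35, SE 0.092, adjusted p = 0.00389) than in Resistant, although library 2 (1792) fell inside the range of Resistant. Resistant lay below Parental in every library without a call (log2 difference -0.17, SE 0.092, adjusted p = 0.137), but a limma fit of those groups alone called it lower (adjusted p = 0.00925).

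Among the HSP70 genes, the stress-inducible pair HSPA1A and HSPA1B was higher in MYC T58A, while the abundant cytosolic and mitochondrial members were lower in Resistant. Of 14 genes, 8 were higher and 3 lower in MYC T58A, and 3 were higher and 7 lower in Resistant. The libraries labelled shMYC1 had 6 higher and 4 lower, and those labelled shMYC2 9 higher and 4 lower (5 and 4 with quantile normalization, 4 and 5 with total scaling). Of all genes, 63.8% were called either way in MYC T58A, 51.6% in Resistant, 57.1% under the shMYC1 label and 79.2% under the shMYC2 label. HSPA1A had 1774, 1577 and 1809 normalized reads in Parental, 1400.2, 1359 and 1407 in Resistant, 1431, 1501 and 1615 in the libraries labelled shMYC1, 2664, 2785 and 2354 in those labelled shMYC2 and 3769, 3168 and 3338 in MYC T58A. HSPA1B had 1726, 1576 and 1707 normalized reads in Parental, 1432, 1329 and 1400.2 in Resistant, 1400.3, 1447 and 1635 in the libraries labelled shMYC1, 1602, 1689 and 1519 in those labelled shMYC2 and 3801, 3486 and 3527 in MYC T58A. In MYC T58A each gene lay above its 3 Parental libraries, at 1.99-fold higher (log2 difference 0.99, SE 0.073, adjusted p = 1.82e-09) for HSPA1A and 2.16-fold higher (log2 difference 1.11, SE 0.062, adjusted p = 4.36e-11) for HSPA1B. In Resistant both were lower, HSPA1A 1.24-fold lower (-0.31) and HSPA1B 1.2-fold lower (-0.27). The pair parted in the libraries labelled shMYC2, where HSPA1A was 1.87-fold higher (log2 difference 0.90, SE 0.073, adjusted p = 2.21e-09) and HSPA1B 1.16-fold higher (log2 difference 0.21, SE 0.062, adjusted p = 0.00545) than Resistant, the HSPA1B call being lost with quantile normalization (0.11) and total scaling (0.06). Their coding sequences differ at 4 of 1923 bases (99.8% identity), so how the reads were split between them is uncertain. Summed, the pair had log2 differences of 1.05 in MYC T58A, -0.29 in Resistant and 0.60 under the shMYC2 label.

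HSPA8 is the HSP70 that cells make at all times, and its promoter above holds 2 heat shock elements. HSPA8 had 101127, 100622 and 101222 normalized reads in Parental, 84037, 75655 and 73343 in Resistant, 105337, 105545 and 109423 in the libraries labelled shMYC1, 79766, 79704 and 80248 in those labelled shMYC2 and 100012, 96883 and 89989 in MYC T58A. Resistant lay below Parental in every library, 1.3-fold lower (log2 difference -0.38, SE 0.047, adjusted p = 2.35e-06). The libraries labelled shMYC1 lay above both, 1.37-fold higher (log2 difference 0.46, SE 0.047, adjusted p = 1.72e-07) than Resistant, a call lost with quantile normalization (0.09). Those labelled shMYC2 overlapped Resistant (log2 difference 0.04, SE 0.047, adjusted p = 0.411), and the value turned to -0.32 with quantile normalization and -0.10 with total scaling. Both turned values were called lower, while the fit without Resistant library 1 called HSPA8 higher (0.10). The direction of HSPA8 under that label therefore depended on the setting. HSPA9 had 19236, 19655 and 19307 normalized reads in Parental, 13031, 12564 and 12168 in Resistant, 17161, 16143 and 18093 in the libraries labelled shMYC1, 16004, 16016 and 16299 in those labelled shMYC2 and 23155, 23259 and 21976 in MYC T58A. HSPA9, also named mortalin, is the HSP70 of mitochondria and draws proteins through the inner membrane. It was 1.54-fold lower (log2 difference -0.62, SE 0.044, adjusted p = 1.56e-09) in Resistant than in Parental, where the 50 neighbouring genes had a median of -0.56. It was 1.18-fold higher (0.23) in MYC T58A (neighbours -0.12), 1.36-fold higher (0.44) in the libraries labelled shMYC1 and 1.28-fold higher (0.36) in those labelled shMYC2 than in Resistant (neighbours 0.55 and 0.49), log2 differences in brackets.

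HSPA5 (BiP) is the HSP70 of the ER and a classic target of its stress response. HSPA5 had 19827, 20225 and 19613 normalized reads in Parental, 17817, 16501 and 16547 in Resistant, 20888, 22580.1 and 22195 in the libraries labelled shMYC1, 20243, 20458 and 19870.5 in those labelled shMYC2 and 15987, 16377 and 16251 in MYC T58A. The Resistant and MYC T58A libraries lay below all others. HSPA5 was 1.17-fold lower (log2 difference -0.23, SE 0.041, adjusted p = 0.000119) in Resistant and 1.23-fold lower (log2 difference -0.30, SE 0.041, adjusted p = 5.34e-06) in MYC T58A than in Parental. Against Resistant it was 1.29-fold higher (0.37) under the shMYC1 label and 1.19-fold higher (0.25) under the shMYC2 label, where quantile normalization gave -0.01. HSPA13, another ER member, was 1.24-fold higher (0.30) in Resistant and 1.39-fold lower (-0.47) in MYC T58A than in Parental.

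HSPH1, HSPA4 and HSPA4L belong to the HSP110 branch, which releases ADP from HSP70. HSPH1 had 19403, 19245 and 19361 normalized reads in Parental, 13981, 13106 and 13088 in Resistant, 16044, 15714 and 16926 in the libraries labelled shMYC1, 12024, 11482 and 12229.8 in those labelled shMYC2 and 19485, 19550.3 and 17809 in MYC T58A. It was 1.44-fold lower (log2 difference -0.53, SE 0.046, adjusted p = 2.44e-08) in Resistant than in Parental, with no overlap, and overlapped Parental in MYC T58A (log2 difference -0.03, SE 0.046, adjusted p = 0.581). Against Resistant it was 1.21-fold higher (log2 difference 0.28, SE 0.046, adjusted p = 4.98e-05) under the shMYC1 label and 1.12-fold lower (log2 difference -0.17, SE 0.046, adjusted p = 0.00271) under the shMYC2 label. HSPA4L had 829, 831 and 768 normalized reads in Parental, 1652, 1581 and 1407 in Resistant, 723, 609 and 734 in the libraries labelled shMYC1, 985, 946 and 1022 in those labelled shMYC2 and 2723, 2711 and 2361 in MYC T58A. HSPA4L had no overlap between any of the 5 groups, and MYC T58A was highest. It was 3.21-fold higher (log2 difference 1.68, SE 0.078, adjusted p = 3.12e-12) in MYC T58A and 1.91-fold higher (log2 difference 0.93, SE 0.078, adjusted p = 1.58e-08) in Resistant than in Parental. Relative to Resistant it was 2.25-fold lower (-1.17) in the libraries labelled shMYC1 and 1.57-fold lower (-0.65) in those labelled shMYC2. HSPA4 was 1.33-fold lower (-0.42) in Resistant, where its neighbours had a median of -0.44, and 1.22-fold higher (0.29) in MYC T58A (neighbours -0.24).

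HSPA12A is a distant relative of HSP70, and of the 14 genes it had the largest called difference in 3 of the 4 comparisons. HSPA12A had 103, 101 and 105 normalized reads in Parental, 393, 428 and 418 in Resistant, 156, 141 and 161 in the libraries labelled shMYC1, 15.1, 8.34 and 10.2 in those labelled shMYC2 and 287, 248 and 213 in MYC T58A. No groups overlapped, and the libraries labelled shMYC2 held only 32 reads in all. Resistant was 4-fold higher (log2 difference 1.99, SE 0.16, adjusted p = 8.23e-09) than Parental and MYC T58A 2.42-fold higher (log2 difference 1.25, SE 0.16, adjusted p = 1.77e-06). Relative to Resistant, the libraries labelled shMYC1 were 2.71-fold lower (-1.43) and those labelled shMYC2 36.8-fold lower (-5.12). HSPA2 had 142, 156 and 150.3 normalized reads in Parental, 133, 129.7 and 139 in Resistant, 93.2, 76.7 and 96.5 in the libraries labelled shMYC1, 173, 203 and 208 in those labelled shMYC2 and 120.2, 118 and 114 in MYC T58A. HSPA2, best known from testis, was 1.51-fold lower (-0.60) under the shMYC1 label and 1.45-fold higher (0.53) under the shMYC2 label than in Resistant. HSPA6, known as strictly stress-inducible and one of the promoters shown, stayed at 3.23 to 35.2 normalized reads, lowest in the libraries labelled shMYC2 and highest in those labelled shMYC1. HSPA14, which works at the ribosome, was 1.25-fold higher (0.32) in MYC T58A, 1.16-fold higher (0.21) in the libraries labelled shMYC1 and 1.12-fold higher (0.16) in those labelled shMYC2. HSPA1L, next to the HSPA1 pair, was low, at 34.3 to 90.2 normalized reads.

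Of the HSP90 genes, the stress-responsive HSP90AA1 was lower in Resistant and the mitochondrial TRAP1 higher in MYC T58A. HSP90AA1 had 100853, 101166 and 100524 normalized reads in Parental, 75927, 67869 and 64213 in Resistant, 109242, 86159.6 and 118653 in the libraries labelled shMYC1, 95779, 95410.1 and 100601 in those labelled shMYC2 and 107063, 108612 and 98231 in MYC T58A. All Resistant libraries lay below the other 12, and library 2 labelled shMYC1 lay low in its group. Resistant was 1.45-fold lower (log2 difference -0.54, SE 0.091, adjusted p = 0.00014) than Parental. Against Resistant, the libraries labelled shMYC1 were 1.51-fold higher (log2 difference 0.58, SE 0.091, adjusted p = 5.94e-05) and those labelled shMYC2 1.4-fold higher (log2 difference 0.49, SE 0.091, adjusted p = 0.000155), where neighbouring genes had a median of 0.64. MYC T58A overlapped Parental (log2 difference 0.05, SE 0.091, adjusted p = 0.642), though quantile normalization called it (0.62). TRAP1 had 5884, 5814 and 5883 normalized reads in Parental, 5001, 5060.4 and 5132 in Resistant, 7033, 5825 and 6555 in the libraries labelled shMYC1, 4772, 4795 and 4657 in those labelled shMYC2 and 10634, 10734 and 10455 in MYC T58A. MYC T58A was above every other library of TRAP1, 1.81-fold higher (log2 difference 0.86, SE 0.052, adjusted p = 1.21e-10) than Parental. In Resistant TRAP1 was 1.16-fold lower (log2 difference -0.21, SE 0.052, adjusted p = 0.00228), and in the libraries labelled shMYC1 it was 1.28-fold higher (0.35) than in Resistant.

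HSP90AB1, the constitutive cytosolic HSP90, and HSP90B1 (GRP94), the HSP90 of the ER, changed call or direction with the scaling. HSP90AB1 had 81184, 82104 and 80375 normalized reads in Parental, 85598, 77962 and 76867 in Resistant, 70031, 65431 and 73147 in the libraries labelled shMYC1, 83559, 82655 and 84751 in those labelled shMYC2 and 85107, 89508 and 83974 in MYC T58A. The libraries labelled shMYC1 were the lowest group, 1.15-fold lower (log2 difference -0.20, SE 0.047, adjusted p = 0.00107) than Resistant. In Resistant against Parental the libraries overlapped (log2 difference -0.02, SE 0.047, adjusted p = 0.738), while quantile normalization gave 0.25 and a call. In MYC T58A against Parental HSP90AB1 was not called (log2 difference 0.09, SE 0.047, adjusted p = 0.12), but it was called higher with quantile normalization (0.31), with total scaling (0.12) and in a fit of those groups alone. In the libraries labelled shMYC2 against Resistant (0.06, not called) quantile normalization gave -0.25 and a call, and the fit without Resistant library 1 gave 0.11 and a call. HSP90B1 had 33612, 34564 and 33393 normalized reads in Parental, 37275, 34968 and 34186 in Resistant, 32849, 30962 and 34442 in the libraries labelled shMYC1, 38234, 36163 and 37689.9 in those labelled shMYC2 and 31937, 32537 and 29470.2 in MYC T58A. In MYC T58A HSP90B1 was 1.08-fold lower (log2 difference -0.11, SE 0.049, adjusted p = 0.0497) than in Parental, a call lost without Parental library 1, 2 or 3 or MYC T58A library 1 or 3 (log2 differences -0.13 to -0.07) and turned by quantile normalization (0.07). That call was also lost with DESeq2, edgeR, total scaling (-0.08), a pseudocount of 0.1 and the fit without the libraries labelled shMYC2. HSP90B1 was not called in Resistant against Parental or in either hairpin group against Resistant. With quantile normalization it was called in Resistant (0.13), under the shMYC1 label (-0.29) and, with the direction turned, under the shMYC2 label (-0.24). The shMYC1 difference was also called with total scaling (-0.19), DESeq2 (-0.12), a pseudocount of 10 and a filter at 50. Of the 4 HSP90 genes, 2 were lower in Resistant (2 higher and 2 lower with quantile normalization), and 1 was higher and 1 lower in MYC T58A (3 and 0 with quantile normalization, 2 and 0 with total scaling). Under the shMYC1 label 2 were higher and 1 lower (2 and 2 with either scaling), and under the shMYC2 label 1 was higher (1 and 3 with quantile normalization, 1 and 1 with total scaling). Over all genes, 51.6%, 63.8%, 57.1% and 79.2% were called either way in these comparisons, in that order.

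**Figure D3:**
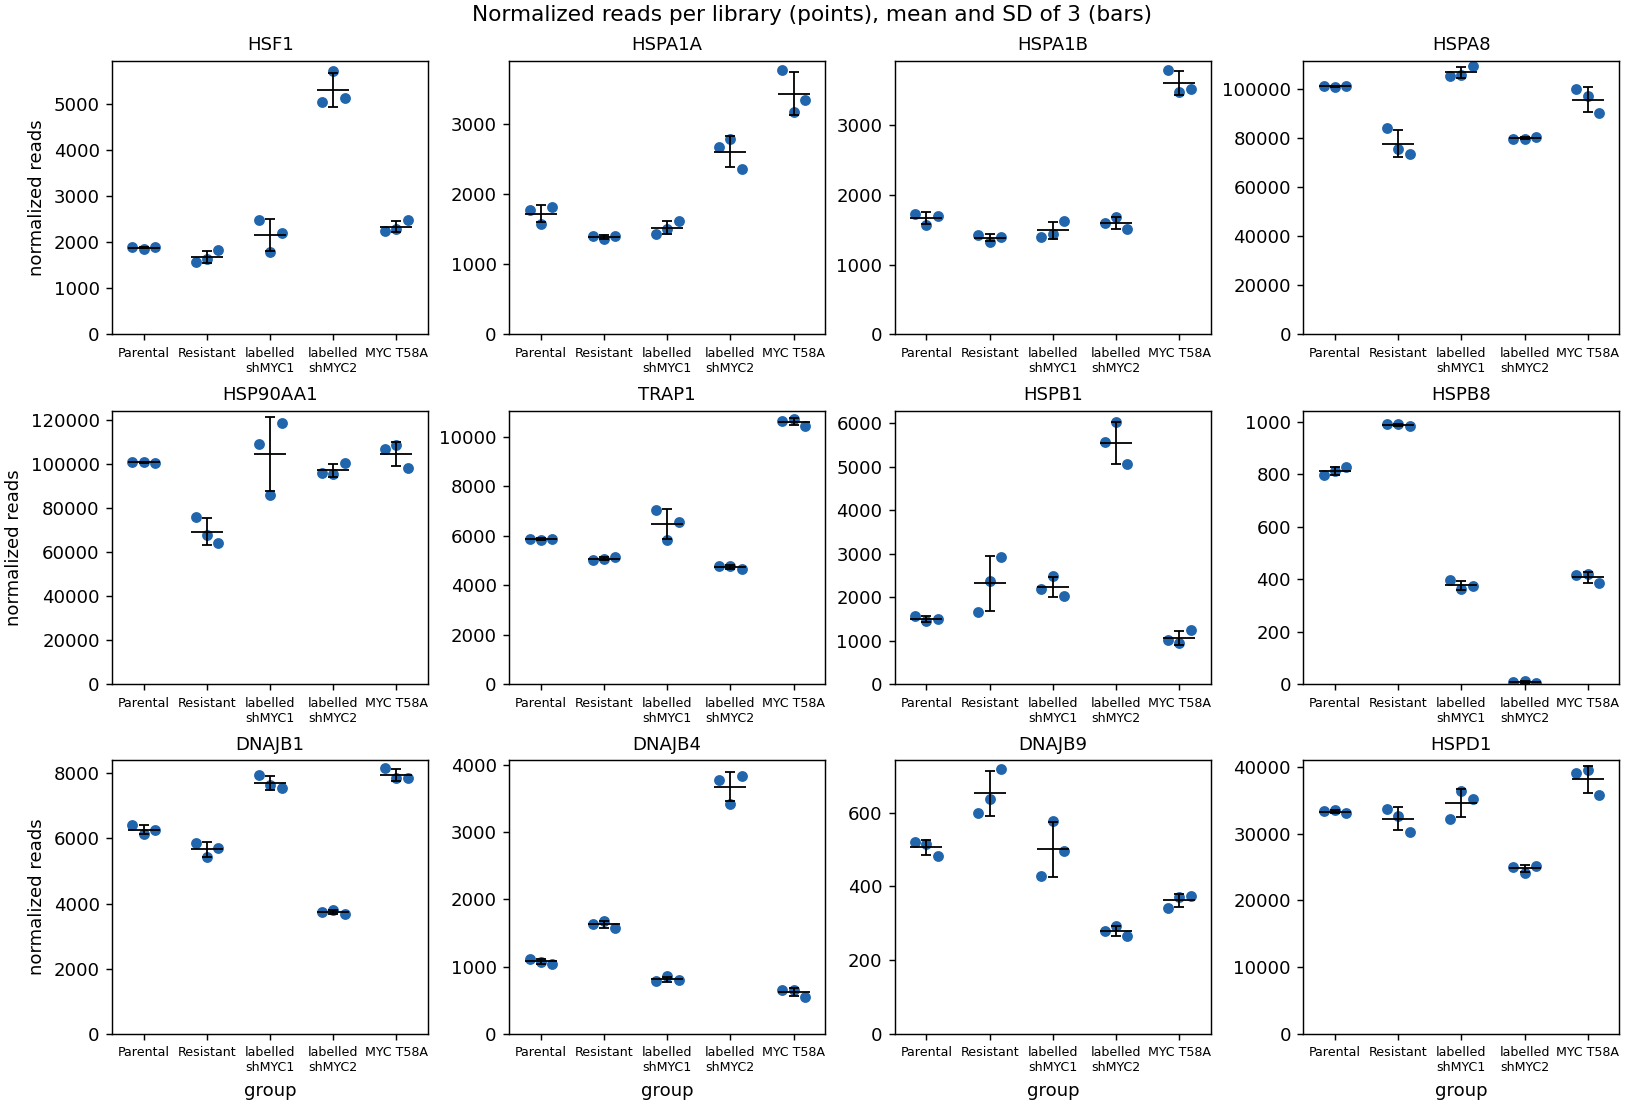
Normalized reads (vertical axis, from 0) of 12 genes in the 5 groups (horizontal axis). Points are libraries, and bars give the mean and SD of 3 libraries. HSPA1A, HSPA1B and TRAP1 are highest in MYC T58A, HSP90AA1 is lowest in Resistant, HSF1, HSPB1 and DNAJB4 are highest in the libraries labelled shMYC2, and HSPB8 is near 0 there.

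The small HSPB genes parted from each other in the libraries labelled shMYC2, where HSPB1 was highest and HSPB8 all but lost. HSPB1 had 1577, 1447 and 1487 normalized reads in Parental, 1658, 2372 and 2917 in Resistant, 2177, 2478 and 2033 in the libraries labelled shMYC1, 5566, 6023 and 5062 in those labelled shMYC2 and 1004, 943 and 1252 in MYC T58A. HSPB1 is HSP27, a holdase that also guards actin filaments. All 3 libraries labelled shMYC2 lay above the rest, 2.4-fold higher (log2 difference 1.30, SE 0.17, adjusted p = 1.54e-05) than Resistant, while neighbouring genes had a median of -0.35. Resistant was 1.54-fold higher (log2 difference 0.59, SE 0.17, adjusted p = 0.0128) than Parental, with libraries from 1658 to 2917, a call lost in a fit of those groups alone. MYC T58A was 1.41-fold lower (log2 difference -0.51, SE 0.17, adjusted p = 0.0219) than Parental, a call lost without Parental library 1 or MYC T58A library 1 or 2 (log2 differences -0.47, -0.47 and -0.42). The libraries labelled shMYC1 overlapped Resistant (log2 difference -0.02, SE 0.17, adjusted p = 0.928).

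HSPB8 is HSP22, which pairs with BAG3 to send clients to autophagy. HSPB8 had 798, 811 and 828 normalized reads in Parental, 991, 992 and 985 in Resistant, 396, 361 and 373 in the libraries labelled shMYC1, 7.54, 11.5 and 4.09 in those labelled shMYC2 and 415, 421 and 384 in MYC T58A. The libraries labelled shMYC2 held 22 reads in all against 3066 in Resistant, 128-fold lower (log2 difference -6.92, SE 0.21, adjusted p = 2.79e-13). In the libraries labelled shMYC1 it was 2.63-fold lower (log2 difference -1.39, SE 0.21, adjusted p = 5.64e-05) than in Resistant, and in MYC T58A 2-fold lower (log2 difference -1.0, SE 0.21, adjusted p = 0.000866) than in Parental. Resistant lay above Parental in every library without a call (log2 difference 0.28, SE 0.21, adjusted p = 0.288). HSPB11 had 1303, 1379.6 and 1351 normalized reads in Parental, 1362, 1264 and 1299 in Resistant, 1507, 1902 and 1503 in the libraries labelled shMYC1, 1589, 1488 and 1443 in those labelled shMYC2 and 713, 682 and 759.8 in MYC T58A. HSPB11 is known as a part of intraflagellar transport rather than as a holdase. It was 1.87-fold lower (log2 difference -0.90, SE 0.076, adjusted p = 9.21e-09) in MYC T58A than in Parental, where its neighbours had a median of -0.53, and 1.25-fold higher (0.31) under the shMYC1 label than in Resistant. Its call in those labelled shMYC2 (0.20) was lost with quantile normalization, with total scaling, and without Resistant library 2 or library 1 labelled shMYC2 (0.06 to 0.18). HSPB3, a muscle member, and HSPB6 were low, at 2.05 to 37.4 and 3.13 to 19.1 normalized reads. HSPB3 was called higher in Resistant than in Parental (2.48), its Resistant libraries lying above the other 12. By class, 2 of 5 small HSPB genes were higher in Resistant, 3 lower in MYC T58A, 1 higher and 2 lower under the shMYC1 label, and 2 higher and 3 lower under the shMYC2 label (1 and 1 with quantile normalization, 1 and 3 with total scaling). The shares of all genes called either way were 51.6%, 63.8%, 57.1% and 79.2%, in the same order.

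The DNAJA genes, J-domain partners of the main HSP70s, were higher in MYC T58A (3 of 3) and lower in the libraries labelled shMYC2 (3 of 3). Of all genes, 63.8% were called in MYC T58A (30.1% higher) and 79.2% under the shMYC2 label (43.0% lower). All 3 lay above the median of their 50 neighbouring genes in MYC T58A. Under the shMYC2 label 2 of the 3 also lay above that median, so their fall was no larger than that of their neighbours. DNAJA1 had 16605, 16695 and 16806 normalized reads in Parental, 19007, 17825 and 17558 in Resistant, 19338, 19961 and 19583 in the libraries labelled shMYC1, 15511, 15022 and 15784 in those labelled shMYC2 and 20860.2, 20198 and 18874 in MYC T58A. DNAJA1 serves HSP70 in the cytosol. It was 1.2-fold higher (log2 difference 0.26, SE 0.043, adjusted p = 4.62e-05) in MYC T58A and 1.09-fold higher (log2 difference 0.12, SE 0.043, adjusted p = 0.0298) in Resistant than in Parental. Under the shMYC1 label it was 1.08-fold higher (0.12) and under the shMYC2 label 1.17-fold lower (-0.23) than in Resistant. Leaving out any Parental library or Resistant library 1 ended the Resistant call (0.08 to 0.12), as did edgeR (0.10). The shMYC1 call was lost with total scaling, in a fit of the compared groups alone (adjusted p = 0.126), without Resistant library 2 or 3 or library 2 or 3 labelled shMYC1 (0.09 to 0.12), and turned to -0.02 with quantile normalization. DNAJA2 had 4021, 3954 and 3959 normalized reads in Parental, 4305, 4128 and 3974 in Resistant, 4284, 3615 and 4478 in the libraries labelled shMYC1, 3751, 3721 and 3753 in those labelled shMYC2 and 6286, 6235 and 5864 in MYC T58A. MYC T58A was above all other libraries, 1.54-fold higher (log2 difference 0.62, SE 0.061, adjusted p = 7.38e-08) than Parental. The lower value under the shMYC2 label (-0.14) lost its call with edgeR (-0.12) and without Resistant library 1 or 2 or any library labelled shMYC2 (-0.15 to -0.11). DNAJA3 had 3582, 3332 and 3519 normalized reads in Parental, 3502, 3396 and 3405 in Resistant, 3734, 3568 and 3490.0 in the libraries labelled shMYC1, 2611, 2556 and 2659.8 in those labelled shMYC2 and 4839, 4745 and 4652 in MYC T58A. DNAJA3 is the J-domain partner of HSPA9 in mitochondria. It was 1.36-fold higher (log2 difference 0.45, SE 0.042, adjusted p = 4.39e-08) in MYC T58A than in Parental, and 1.32-fold lower (log2 difference -0.40, SE 0.042, adjusted p = 9.35e-08) in the libraries labelled shMYC2 than in Resistant.

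Most DNAJB genes were lower in MYC T58A, while DNAJB1 was higher. Of 9 tested, 7 were lower and 1 higher there, while in Resistant 5 were higher and 2 lower. The libraries labelled shMYC1 had 3 higher and 5 lower than Resistant, and those labelled shMYC2 4 higher and 3 lower (4 and 4 with quantile normalization, 3 and 5 with total scaling). Among all genes, 63.8% were called either way in MYC T58A, 51.6% in Resistant, 57.1% under the shMYC1 label and 79.2% under the shMYC2 label. DNAJB1 had 6402, 6146 and 6270.1 normalized reads in Parental, 5868, 5424 and 5703 in Resistant, 7946, 7643 and 7541 in the libraries labelled shMYC1, 3748, 3805 and 3684 in those labelled shMYC2 and 8173, 7868 and 7843 in MYC T58A. DNAJB1, or HSP40, is the heat-inducible J-domain protein of the cytosol. Relative to Parental it was 1.27-fold higher (log2 difference 0.34, SE 0.041, adjusted p = 8.85e-07) in MYC T58A and 1.11-fold lower (log2 difference -0.15, SE 0.041, adjusted p = 0.00567) in Resistant. Relative to Resistant it was 1.36-fold higher (log2 difference 0.45, SE 0.041, adjusted p = 4.05e-08) under the shMYC1 label and 1.51-fold lower (log2 difference -0.60, SE 0.041, adjusted p = 1.93e-10) under the shMYC2 label, where its neighbours had a median of -0.55.

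DNAJB4 and DNAJB5, close relatives of DNAJB1, had another pattern. DNAJB4 had 1109.9, 1074 and 1044 normalized reads in Parental, 1634, 1684 and 1577 in Resistant, 785, 857 and 795 in the libraries labelled shMYC1, 3775, 3425 and 3836 in those labelled shMYC2 and 650.2, 655 and 546 in MYC T58A. DNAJB5 had 148, 131 and 186 normalized reads in Parental, 322, 239 and 283 in Resistant, 132, 141 and 136 in the libraries labelled shMYC1, 449, 479.8 and 475 in those labelled shMYC2 and 101, 106 and 89.9 in MYC T58A. In both genes the libraries labelled shMYC2 were highest, Resistant next and MYC T58A lowest. In Resistant DNAJB4 was 1.52-fold higher (log2 difference 0.60, SE 0.068, adjusted p = 6.94e-07) and DNAJB5 1.81-fold higher (log2 difference 0.86, SE 0.12, adjusted p = 1.31e-05) than in Parental. In MYC T58A the values were 1.74-fold lower (-0.81) and 1.57-fold lower (-0.63). Against Resistant, DNAJB4 was 2.01-fold lower (log2 difference -1.01, SE 0.068, adjusted p = 5.76e-10) under the shMYC1 label and 2.25-fold higher (log2 difference 1.17, SE 0.068, adjusted p = 1.49e-11) under the shMYC2 label, and DNAJB5 2.06-fold lower (-1.03) and 1.66-fold higher (0.74). DNAJB4 overlaps GIPC2 on the same strand in the annotation, so reads may be shared. DNAJB2 had 657, 606 and 646 normalized reads in Parental, 999, 949 and 1062 in Resistant, 803, 743 and 791 in the libraries labelled shMYC1, 944, 979 and 961 in those labelled shMYC2 and 305, 287 and 293 in MYC T58A. DNAJB2 hands ubiquitinated clients to the proteasome. It was 2.16-fold lower (log2 difference -1.11, SE 0.058, adjusted p = 1.68e-11) in MYC T58A and 1.58-fold higher (log2 difference 0.66, SE 0.058, adjusted p = 3.36e-08) in Resistant than in Parental. DNAJB6 had 2599.9, 2615 and 2444 normalized reads in Parental, 2602, 2622 and 2661 in Resistant, 4085, 3539 and 3798 in the libraries labelled shMYC1, 2389, 2435 and 2479.7 in those labelled shMYC2 and 2702, 2793 and 2555 in MYC T58A. DNAJB6 suppresses aggregation of polyglutamine proteins, and its promoter above holds a heat shock element. Against Resistant it was 1.45-fold higher (log2 difference 0.53, SE 0.052, adjusted p = 8.89e-08) under the shMYC1 label, whose 3 libraries lay above the other 12.

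DNAJB9 and DNAJB11 act in the ER beside HSPA5 and went opposite ways under the shMYC2 label. DNAJB9 had 520.2, 516 and 483 normalized reads in Parental, 599, 638 and 719 in Resistant, 429, 577 and 495 in the libraries labelled shMYC1, 279.9, 292 and 266 in those labelled shMYC2 and 341, 369.8 and 375 in MYC T58A. DNAJB11 had 2435, 2432 and 2394 normalized reads in Parental, 2199.5, 2249 and 2262 in Resistant, 2738, 2951 and 2831 in the libraries labelled shMYC1, 4468, 4441 and 4646 in those labelled shMYC2 and 2262, 2233 and 2123 in MYC T58A. DNAJB9 was 2.33-fold lower (log2 difference -1.22, SE 0.093, adjusted p = 9.19e-10) and DNAJB11 2.02-fold higher (log2 difference 1.01, SE 0.043, adjusted p = 1.45e-13) than Resistant, where neighbours had medians of -0.03 and 0.63. In Resistant DNAJB9 was 1.29-fold higher (log2 difference 0.36, SE 0.093, adjusted p = 0.0034) and in MYC T58A 1.4-fold lower (log2 difference -0.49, SE 0.093, adjusted p = 0.000191) than Parental. DNAJB11 differed less from Parental, with log2 differences of -0.11 in Resistant and -0.13 in MYC T58A. DNAJB12 and DNAJB14, ER membrane proteins, were both lower in MYC T58A (-0.17 and -0.39). DNAJB13, untested, had 0 to 10.6 normalized reads in the 15 libraries.

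The 26 DNAJC genes join a J-domain to many other tasks, and they went in both directions. In Resistant 6 were higher and 9 lower (3 and 10 with quantile normalization), in MYC T58A 10 and 9, in the libraries labelled shMYC1 8 and 6, and in those labelled shMYC2 14 and 8 (15 and 9 with quantile normalization, 12 and 9 with total scaling). Over all genes, 51.6%, 63.8%, 57.1% and 79.2% were called either way in these 4 comparisons, in that order. DNAJC12 had 98.6, 115 and 87.6 normalized reads in Parental, 161, 150.4 and 147 in Resistant, 55.2, 67.9 and 56.4 in the libraries labelled shMYC1, 2.15, 1.04 and 1.02 in those labelled shMYC2 and 188, 159 and 184 in MYC T58A. DNAJC12 is the co-chaperone of the aromatic amino acid hydroxylases. The libraries labelled shMYC2 held 4 reads against 473 in Resistant, a ratio of 109 with a 95% interval of 42.4 to 403 that covers counting error only. DNAJC12 was 1.53-fold higher (log2 difference 0.61, SE 0.18, adjusted p = 0.00858) in Resistant and 1.77-fold higher (log2 difference 0.82, SE 0.18, adjusted p = 0.000694) in MYC T58A than in Parental, and 2.56-fold lower (-1.35) under the shMYC1 label than in Resistant. DNAJC6 had 1167, 1204 and 1219.8 normalized reads in Parental, 1228, 1286 and 1204 in Resistant, 913, 1008 and 896 in the libraries labelled shMYC1, 193, 235 and 216 in those labelled shMYC2 and 986, 1028 and 1025 in MYC T58A. DNAJC6 is auxilin, which strips clathrin coats, and it was 5.78-fold lower (log2 difference -2.53, SE 0.067, adjusted p = 1.9e-16) under the shMYC2 label. DNAJC22 had 417, 472 and 416 normalized reads in Parental, 402, 376 and 443 in Resistant, 325, 349 and 329.8 in the libraries labelled shMYC1, 130.3, 106 and 110.5 in those labelled shMYC2 and 532, 537 and 527 in MYC T58A. DNAJC22 was 3.52-fold lower (log2 difference -1.81, SE 0.086, adjusted p = 9.59e-13) under the shMYC2 label, where its neighbours had a median of 0.33.

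Other DNAJC genes stood out in single comparisons. DNAJC18 had 485, 457 and 504 normalized reads in Parental, 265, 215 and 214 in Resistant, 332, 350.2 and 352 in the libraries labelled shMYC1, 345, 350.4 and 351 in those labelled shMYC2 and 486, 504 and 420.4 in MYC T58A. DNAJC18 was 2.08-fold lower (log2 difference -1.06, SE 0.087, adjusted p = 1.19e-08) in Resistant, where its neighbours had a median of -0.56. DNAJC21 had 2678, 2761 and 2705 normalized reads in Parental, 1937, 1664 and 1705 in Resistant, 2904, 2537 and 2959 in the libraries labelled shMYC1, 3159.9, 3008 and 2982 in those labelled shMYC2 and 3914, 3891 and 3648 in MYC T58A. DNAJC21, which helps mature the large ribosomal subunit, was 1.53-fold lower (log2 difference -0.62, SE 0.062, adjusted p = 1.67e-07) in Resistant (neighbours -0.46) and 1.41-fold higher (log2 difference 0.49, SE 0.062, adjusted p = 1.95e-06) in MYC T58A (neighbours 0.46). DNAJC2 had 2640.4, 2479 and 2548 normalized reads in Parental, 2132, 2005 and 1873 in Resistant, 2255, 2255 and 2518 in the libraries labelled shMYC1, 1645, 1626 and 1791 in those labelled shMYC2 and 4032, 3999 and 4038 in MYC T58A. DNAJC2 works with HSPA14 on chains leaving the ribosome. It was 1.57-fold higher (log2 difference 0.65, SE 0.057, adjusted p = 1.52e-08) in MYC T58A and 1.28-fold lower (log2 difference -0.35, SE 0.057, adjusted p = 4.58e-05) in Resistant than in Parental. DNAJC30 had 225, 186 and 219 normalized reads in Parental, 184, 237 and 246 in Resistant, 245, 207 and 193 in the libraries labelled shMYC1, 265, 270.1 and 271 in those labelled shMYC2 and 352, 354 and 355 in MYC T58A. DNAJC30, a mitochondrial protein, was 1.68-fold higher (log2 difference 0.75, SE 0.11, adjusted p = 1.19e-05) in MYC T58A. DNAJC10 had 3990.2, 4094 and 4099.7 normalized reads in Parental, 5812, 5905 and 5513 in Resistant, 3497, 3302 and 3594 in the libraries labelled shMYC1, 4947, 4637 and 5127 in those labelled shMYC2 and 4552, 4766 and 4252 in MYC T58A. DNAJC10 reduces disulfide bonds in the ER. It was 1.41-fold higher (log2 difference 0.50, SE 0.051, adjusted p = 2.25e-07) in Resistant than in Parental and 1.66-fold lower (log2 difference -0.73, SE 0.051, adjusted p = 1.12e-09) under the shMYC1 label than in Resistant. DNAJC17 had 220.1, 309 and 268 normalized reads in Parental, 205, 196 and 188 in Resistant, 329, 329.9 and 345 in the libraries labelled shMYC1, 324, 284 and 295 in those labelled shMYC2 and 435, 408 and 359 in MYC T58A. DNAJC17 was 1.7-fold higher (log2 difference 0.77, SE 0.11, adjusted p = 6.26e-06) in the libraries labelled shMYC1.

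Under the shMYC2 label the largest increases of DNAJC genes over Resistant were 1.41 for DNAJC1, an ER membrane protein, 1.07 for DNAJC15 and 0.85 for DNAJC19, both of the mitochondrial import motor, and 0.86 for DNAJC8, a spliceosome protein. Neighbouring genes had medians of 0.18, 0.10, 0.90 and 0.21 there. DNAJC16 fell by 1.28 on the log2 scale (neighbours -0.62). Values of DNAJC3, the ER protein also called P58IPK, are unsteady in the libraries labelled shMYC1, at 3519, 2136 and 3663. DNAJC4, DNAJC9 and DNAJC25 share exons on the same strand with NUDT22, MRPS16 and DNAJC25-GNG10 in the annotation.

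The chaperonin CCT folds actin and tubulin in a ring of 8 kinds of subunit, whose genes are TCP1 and CCT2 to CCT8, with CCT6B as a second form of the sixth. CCT4, CCT5 and CCT7 fell in Resistant, and most subunits were higher in MYC T58A. Of 9 genes, 5 were lower in Resistant (3 with quantile normalization), 6 higher and 1 lower in MYC T58A, 6 higher in the libraries labelled shMYC1 (3 higher and 1 lower with quantile normalization, 3 higher with total scaling), and 6 higher and 1 lower in those labelled shMYC2 (3 and 3 with quantile normalization, 5 and 3 with total scaling). The shares of all genes called either way were 51.6%, 63.8%, 57.1% and 79.2%, in the same order. CCT4 had 19996, 19954 and 19738 normalized reads in Parental, 13449, 13882 and 13328 in Resistant, 19178, 20019 and 20526 in the libraries labelled shMYC1, 17823, 17999 and 18009.7 in those labelled shMYC2 and 23768, 24111 and 22797 in MYC T58A. CCT5 had 24638, 25267 and 24503 normalized reads in Parental, 15768, 14803 and 13779 in Resistant, 22991, 26396 and 24928 in the libraries labelled shMYC1, 22747, 22761 and 23389.6 in those labelled shMYC2 and 36639, 35905 and 34087 in MYC T58A. CCT7 had 18999.9, 19338 and 19477 normalized reads in Parental, 13703, 13002 and 13371 in Resistant, 19116, 19434 and 19112 in the libraries labelled shMYC1, 16915, 16740.1 and 16697 in those labelled shMYC2 and 23419.9, 22550.0 and 23691 in MYC T58A. In these genes all Resistant libraries lay below the other 12. Relative to Parental, CCT4 was 1.47-fold lower (log2 difference -0.55, SE 0.038, adjusted p = 9.96e-10) in Resistant, CCT5 1.68-fold lower (log2 difference -0.75, SE 0.053, adjusted p = 1.71e-09) and CCT7 1.44-fold lower (log2 difference -0.53, SE 0.036, adjusted p = 8.97e-10). Their neighbours on the chromosomes had medians of -0.34, -0.55 and -0.44 there. In MYC T58A CCT5 was 1.43-fold higher (log2 difference 0.52, SE 0.053, adjusted p = 1.23e-07), with a neighbour median of 0.51.

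Against Resistant, CCT4, CCT5 and CCT7 were higher in the libraries labelled shMYC1 (0.55, 0.74 and 0.53) and in those labelled shMYC2 (0.41, 0.64 and 0.33). Against Parental, limma called 0 of 9 CCT genes in the libraries labelled shMYC1, with 0 also at an unadjusted p under 0.05, with edgeR and with DESeq2. In that comparison limma called 39.6% of all genes. CCT8 had 9894, 10039 and 10052 normalized reads in Parental, 10382, 10016 and 9369.6 in Resistant, 9659, 9839 and 10409.8 in the libraries labelled shMYC1, 15649.9, 15329 and 15863 in those labelled shMYC2 and 12294, 12499.6 and 11769 in MYC T58A. CCT8 was 1.57-fold higher (log2 difference 0.66, SE 0.044, adjusted p = 1.41e-10) in the libraries labelled shMYC2, which lay above all others, with a neighbour median of 0.52. In MYC T58A it was 1.22-fold higher (0.29) (neighbours 0.01). TCP1 had 15939, 16045 and 15652 normalized reads in Parental, 15043, 14407 and 14108 in Resistant, 15428, 16272 and 16665 in the libraries labelled shMYC1, 17194, 17214 and 17267 in those labelled shMYC2 and 18541, 18821 and 17659 in MYC T58A. TCP1 was 1.16-fold higher (log2 difference 0.21, SE 0.041, adjusted p = 0.000223) in MYC T58A and 1.09-fold lower (log2 difference -0.13, SE 0.041, adjusted p = 0.0124) in Resistant, the Resistant call being lost with quantile normalization (-0.05) and without Resistant library 3 (-0.11). TCP1 against Resistant was 0.15 under the shMYC1 label, a call lost with total scaling, and 0.25 under the shMYC2 label, and quantile normalization gave -0.02 and -0.04. CCT2 had 18937, 19185 and 19244 normalized reads in Parental, 19416, 18606 and 17319 in Resistant, 18784, 19458 and 21254 in the libraries labelled shMYC1, 18371, 18297 and 19374 in those labelled shMYC2 and 15971, 15870.2 and 14963 in MYC T58A. CCT2 was 1.23-fold lower (log2 difference -0.29, SE 0.051, adjusted p = 6.3e-05) in MYC T58A, where its neighbours had a median of -0.50. CCT6B, known from testis, had 3.13 to 23 normalized reads.

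**Figure D4:**
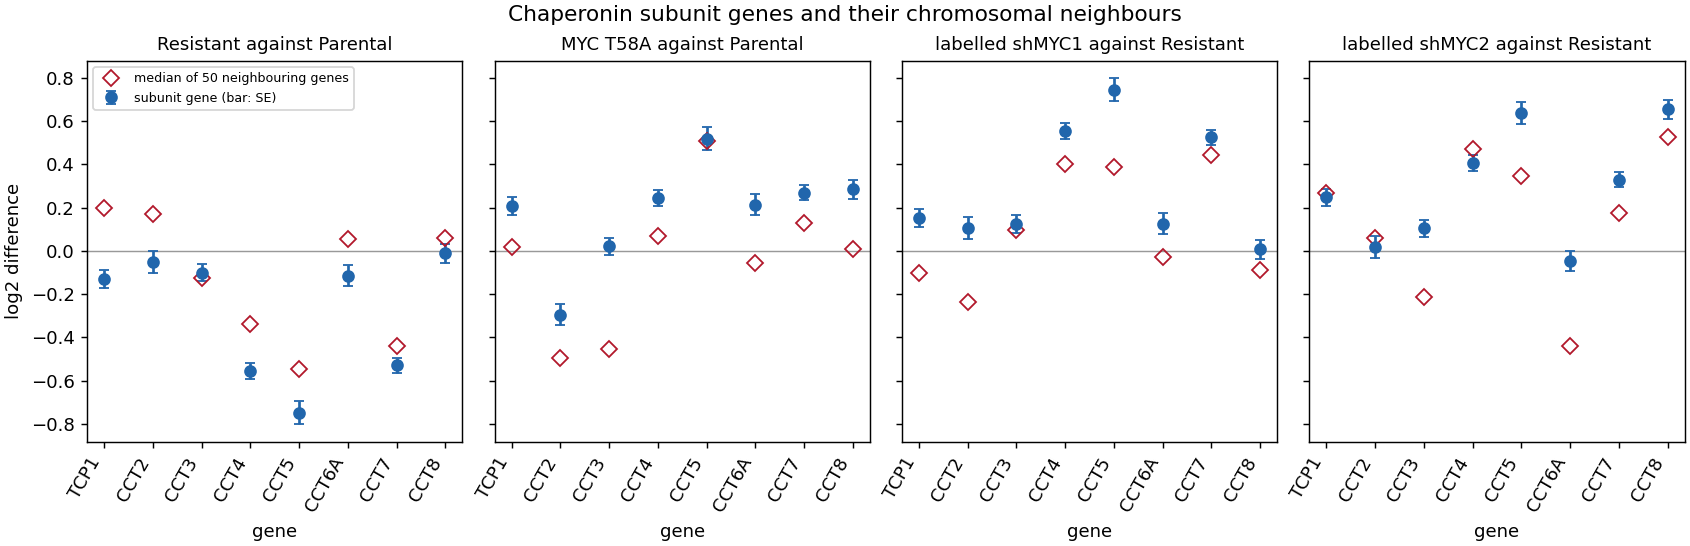
Log2 difference (vertical axis) of the 8 main CCT genes (horizontal axis) in 4 comparisons, with bars of 1 SE, beside the median log2 difference of the 50 tested genes nearest to each on its chromosome (diamonds). CCT4, CCT5 and CCT7 are lowest in Resistant, at -0.55, -0.75 and -0.53, and the diamonds beside them are at -0.34, -0.55 and -0.44.

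HSPD1 and HSPE1, the mitochondrial ring and its lid, share the E-box shown above. HSPD1 had 33396, 33516 and 33075 normalized reads in Parental, 33787, 32730.4 and 30338 in Resistant, 32279, 36383 and 35188 in the libraries labelled shMYC1, 25075, 24199.6 and 25201 in those labelled shMYC2 and 39109.6, 39611 and 35865 in MYC T58A. The libraries labelled shMYC2 lay below all others, 1.3-fold lower (log2 difference -0.38, SE 0.051, adjusted p = 2.11e-06) than Resistant. MYC T58A was 1.15-fold higher (log2 difference 0.20, SE 0.051, adjusted p = 0.00287) than Parental. HSPE1 had 1562, 1718 and 1657 normalized reads in Parental, 1471, 1577 and 1529 in Resistant, 1119, 2417 and 1754 in the libraries labelled shMYC1, 1675, 1657 and 1808 in those labelled shMYC2 and 1729, 1862 and 2065 in MYC T58A. HSPE1 ranged widely in the libraries labelled shMYC1 and was called in none of the 4 main comparisons with limma, edgeR or DESeq2. In fits of the compared groups alone it was called higher in MYC T58A and under the shMYC2 label, and without library 1 labelled shMYC1 it was called under that label (0.43). Its difference was 0.17 in the libraries labelled shMYC2 against Resistant and 0.19 in MYC T58A against Parental. HSPE1 shares exons with HSPE1-MOB4 in the annotation.

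By compartment, 8 members were listed for the ER (HSPA5, HSPA13, HSP90B1, DNAJB9, DNAJB11, DNAJC1, DNAJC3 and DNAJC10), and 7 of them were lower and 1, DNAJC10, higher in MYC T58A (median -0.23). Among the 7 lower was HSP90B1, whose call was lost in the alternatives named with that gene. In Resistant 3 were higher and 2 lower, in the libraries labelled shMYC1 2 and 3, and in those labelled shMYC2 4 and 2. The list does not hold every ER protein among the members, DNAJB12 and DNAJB14 for instance, so the counts cover the listed genes only. Of 8 members listed for mitochondria (HSPA9, HSPD1, HSPE1, TRAP1, DNAJA3, DNAJC11, DNAJC15 and DNAJC19), 5 were higher and 1 lower in MYC T58A (median 0.21), 3 lower in Resistant, 3 higher in the libraries labelled shMYC1, and 3 higher and 3 lower in those labelled shMYC2. That list is likewise not complete (DNAJC30 is left out), and its counts cover the listed genes only. The 1 lower listed member in MYC T58A was DNAJC15 (-0.17), whose libraries overlapped Parental. Over all genes, 27.2% were called higher and 24.4% lower in Resistant, and 30.1% and 33.7% in MYC T58A. The shares were 27.0% and 30.1% under the shMYC1 label, and 36.2% and 43.0% under the shMYC2 label.

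Partner genes of these machines were counted in lists. Beside all list counts below stand the shares of all genes called either way. These were 51.6% in Resistant, 63.8% in MYC T58A, 57.1% under the shMYC1 label and 79.2% under the shMYC2 label. BAG3, CHORDC1 and FKBP4 are in both the co-chaperone list and the list of other heat shock factors and targets. Of 22 co-chaperones of HSP70 and HSP90, 4 were higher and 6 lower in Resistant, 11 and 4 in MYC T58A, 10 and 2 in the libraries labelled shMYC1, and 10 and 8 in those labelled shMYC2. BAG3, a nucleotide exchange factor and partner of HSPB8, went from 3644 ± 41.2 normalized reads in Parental (SD, n = 3) to 2619 ± 131 in Resistant (-0.48), and reached 4138 ± 469.8 in the libraries labelled shMYC1 (0.66 against Resistant). FKBP5, an HSP90 partner of steroid receptors, went from 1052 ± 10.5 to 2079.9 ± 147 in MYC T58A (0.98), and TTC4 from 36.6 ± 5.4 to 18.9 ± 4.69 (-0.94). Under the shMYC2 label, NUDC went from 6703 ± 502 to 18248 ± 649.9 (1.45), and CDC37, which brings kinases to HSP90, from 12063 ± 1222 to 5081 ± 90.8 (-1.24). The remaining extremes of this list were STUB1 in Resistant (0.36) and BAG4 under the shMYC1 label (-0.31).

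Prefoldin and the CCT cofactors, which bring chains to CCT, had 5 of 9 lower in Resistant, 3 higher and 3 lower in MYC T58A, 5 higher in the libraries labelled shMYC1, and 4 higher and 1 lower in those labelled shMYC2. PFDN4 went from 1832 ± 52.9 to 1165 ± 62.1 normalized reads in Resistant (-0.65), and PFDN1 from 1083 ± 48.3 in Resistant to 2055 ± 95.8 under the shMYC1 label (0.92) and 2244 ± 92.5 under the shMYC2 label (1.05). In MYC T58A the extremes were PFDN5 (-0.86) and PDCL (0.55), and the 1 lower under the shMYC2 label was PDCL3 (-0.47). Of 12 mitochondrial quality control genes, 8 were higher in MYC T58A, led by the protease AFG3L2, from 3076 ± 131 to 7766 ± 373 (1.34). In Resistant 2 were higher and 4 lower (SPG7 0.35, GRPEL2 -0.54), under the shMYC1 label 4 and 3 (GRPEL2 0.63, AFG3L2 -0.21), and under the shMYC2 label 4 and 5 (HTRA2 0.84, TIMM44 -0.69). GRPEL2 is an exchange factor of HSPA9.

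Of 18 genes of ER folding and the unfolded protein response, 8 were higher and 2 lower in Resistant, 3 and 9 in MYC T58A, 7 and 6 under the shMYC1 label, and 8 and 7 under the shMYC2 label. XBP1, a transcription factor of that response, went from 1312 ± 35.6 in Parental to 2260.1 ± 183 in Resistant (0.78) and stood at 1128 ± 8.47 in the libraries labelled shMYC1 (-1.0 against Resistant). CANX, the lectin chaperone calnexin, went the other way, from 38977 ± 255 to 25252 ± 682 (-0.63) and 43504 ± 1638 (0.78). In MYC T58A SIL1, an exchange factor of HSPA5, was at -0.77 and SDF2L1 at 0.72, and under the shMYC2 label DDIT3 was at -0.95 and PDIA6 at 0.79. Of 15 other heat shock factors and targets, 4 were higher and 2 lower in Resistant, 6 and 6 in MYC T58A, 5 and 6 under the shMYC1 label, and 3 and 10 under the shMYC2 label. CLU, the secreted chaperone clusterin, went from 225 ± 9.03 to 872 ± 58.9 in Resistant (1.95) and 239 ± 14.6 under the shMYC1 label (-1.86). The largest increase in MYC T58A was FKBP4 (0.70), and under the shMYC2 label it was the collagen chaperone SERPINH1 (0.95). CRYAB, the lowest called gene of this list in both of these comparisons, was close to 0 throughout, with a mean of 3.12 normalized reads in Parental and 8.59 in Resistant.

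Under the hairpin labels, 10 of 73 members were called in opposite directions against Resistant, with the difference between the labels itself called (16.2% of all genes were so called). DNAJA1, DNAJB1, HSPH1, DNAJC2 and DNAJC11 were higher under the shMYC1 label and lower under the shMYC2 label (5 members, against 8.32% of all genes). DNAJB4, DNAJB5, DNAJC13, HSPA2 and HSPA13 were the other way round (5 members, against 7.87%). The shMYC1 side of DNAJA1 (0.12) was -0.02 with quantile normalization and lost its call with total scaling and in a fit of the compared groups alone. Between the labels, shMYC2 minus shMYC1, DNAJB4 differed by 2.18 (adjusted p = 1.91e-15), DNAJB5 by 1.77 (adjusted p = 2.58e-10) and HSPA2 by 1.13 (adjusted p = 2.51e-08). In that comparison 28 members were higher and 26 lower, where 78.6% of all genes were called (35.7% higher and 42.9% lower), and 57 members did not overlap (78.8% of all genes).

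Called members were set against the genes beside them. In the direction of their call, 39 of 42 members in Resistant lay beyond the median of the 50 tested genes nearest on the chromosome (92.9%, against 93.6% of all called genes with a position). These counts were 50 of 55 in MYC T58A (90.9%, against 94.4%), 43 of 46 under the shMYC1 label (93.5%, against 94.8%) and 48 of 60 under the shMYC2 label (80.0%, against 90.2%). A called gene lies away from 0 by its choice, and the members' shares were no higher than those of all called genes. CCT5 in MYC T58A, at 0.52 with neighbours at 0.51, was barely beyond. Whether shifts of chromosome stretches take part in these differences was not tested.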

How the data were processed

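Total RNA was extracted by column and made into stranded mRNA libraries (Kapa), per the labels' protocols. The authors deposited 1 table of normalized read counts per gene symbol. Its values are a signal, read counts divided by 1 size factor per library: in each of the 15 deposited columns all values (100%) were whole multiples of 1 step within 0.01. Trim Galore, cutadapt, STAR, HTSeq and DESeq2 are named in the submitters' processing notes. Their versions, the build of the genome, the gene annotation and the setting for strand were not given in the sources used here. Libraries 1 to 3 of a group follow the order of its columns, whose names carry the group and a number running from 1 to 15.

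The values were put on the scale log2(value + 1), and a gene entered the test when 3 or more libraries had 10 or more normalized reads (17012 of 18322, with 1310 not tested). limma 3.58.1 (trend and robust, R 4.3.3) fitted the 5 group means to all 15 libraries, with Benjamini-Hochberg adjustment over all genes tested and a threshold of 0.05. Fold changes are ratios of group means of normalized reads. On simulated data, 80% to 90% of genes changed 1.5-fold (50 genes in each comparison) and 98% to 100% of those changed 2-fold were recovered. There 2.02% to 5.94% of calls were false. The simulation gave all genes the same spread and all libraries the same levels apart from a small set of changed genes. The changed genes were all well above the filter. In the data far more genes were called and the spread was uneven, so these rates are not error rates of the calls reported here. Alternatives were quantile normalization, total scaling, other filters and pseudocounts, DESeq2 1.42.0 and edgeR 4.0.16 on the recovered reads (8728 and 9253 genes called in Resistant against Parental, against 8781 with limma), the 2 groups compared alone, each library left out, HSPA1A and HSPA1B summed and, chosen after seeing the data, a fit without the libraries labelled shMYC2 and the medians of the 50 neighbouring genes. Neighbours were the 25 tested genes on each side, in the gene order of GENCODE v29 (14225 tested genes with a position), which also gave exon lengths and overlaps. Near the end of a chromosome the window was shifted so that it still held 50 genes. Nearest genes are thus nearest by order, not by distance in bases. Apart from the RefSeq promoter stretches (GRCh38.p14), no gene coordinates are given, because the build used for counting is not named. Python 3.11.15, pandas 2.3.3 and matplotlib 3.10.9 served for the rest.

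Members and lists were chosen with earlier results of these data known. Values in every library are given for 18 core members and, for each comparison and class, for up to 3 called members with the largest change among those with a mean of at least 100 in either group. From each other list, the called genes with the largest change in each direction are named.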

Additional observations from a re-analysis of the deposited data

Results flagged for a closer look

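DNAJA1, DNAJB1 and HSPH1, core genes of the HSP70 cycle, were called in opposite directions against Resistant under the hairpin labels, and limma called the difference between the labels itself, a pattern that 16.2% of all genes had. They were higher in the libraries labelled shMYC1 and lower in those labelled shMYC2. The libraries labelled shMYC2 minus those labelled shMYC1 differed on the log2 scale by -0.35 in DNAJA1 (limma, adjusted p = 7.46e-07), by -1.04 in DNAJB1 (adjusted p = 6.08e-14) and by -0.45 in HSPH1 (adjusted p = 5.97e-08). In each gene all 3 libraries labelled shMYC2 lay below all 3 labelled shMYC1, and 78.8% of all genes likewise had no overlap between these labels. The median of the genes beside DNAJB1 under the shMYC2 label, close to its own value there, is given with that gene. The shMYC1 side of DNAJA1 (0.12) was -0.02 with quantile normalization and lost its call with total scaling, in a fit of the compared groups alone and on leaving out any 1 of 4 libraries.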

How the results depend on the processing

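The counts of called members over all 73 stayed within 1.5 times their values under every alternative run. Counts within a class moved more with the scaling: higher HSP70 genes under the shMYC2 label went from 9 to 5 (quantile normalization) and 4 (total scaling), higher CCT genes under the shMYC1 label from 6 to 3 with both, higher CCT genes under the shMYC2 label from 6 to 3 and 5, and, with quantile normalization, lower CCT genes in Resistant from 5 to 3, higher DNAJC genes in Resistant from 6 to 3 and lower small HSPB genes under the shMYC2 label from 3 to 1. HSP90 counts are given with the genes. With each library left out in turn, members higher and lower ran from 13 to 15 and 21 to 24 in Resistant, 31 to 32 and 21 to 23 in MYC T58A, 25 to 30 and 18 to 19 in the libraries labelled shMYC1, and 34 to 37 and 21 to 23 in those labelled shMYC2. Of 102 called differences of named members, 89 kept call and direction under every alternative. Of the 1611 alternative values of the 102, 1564 kept call and direction and 42 lost the call without turning. The remaining ones turned direction and were not called either. Of 21 not called, 13 were called in the same direction under some setting. HSP90AB1 in Resistant and HSP90B1 under the shMYC2 label were called only with the direction turned, with quantile normalization. HSPA8 and HSP90AB1 under the shMYC2 label were called in both directions, depending on the setting. The direction turned in 10 values. With quantile normalization these were DNAJA1 (-0.0233) and TCP1 (-0.0207) under the shMYC1 label, HSP90AB1 (-0.25), HSP90B1 (-0.24), HSPA5 (-0.0120), HSPA8 (-0.32) and TCP1 (-0.0418) under the shMYC2 label, HSP90AB1 (0.25) in Resistant and HSP90B1 (0.0716) in MYC T58A. With total scaling it was HSPA8 (-0.10) under the shMYC2 label. The cause was not tested. No paired analysis was possible because the columns are numbered from 1 to 15 and carry no replicate number. The libraries labelled shMYC2 stand apart, and several small differences there changed sign with the scaling. With 3 libraries a group, 1.5-fold changes were recovered less often than 2-fold ones on simulated data, and members with few reads (HSPB3, HSPB6, HSPA6, CCT6B) rest on counts too low for small changes to be detectable at this depth.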
